A study of Homo sapiens with 19 samples.

Results

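Genes of mitochondrial removal and mitochondrial subunit switching were examined in 786-O cells, an established clear cell renal cancer line with defective VHL. The 8 genes were chosen by symbol from the 23441 genes of the raw count table: BNIP3, BNIP3L, FUNDC1, FAM162A, NDUFA4L2, COX4I2, LONP1 and ISCU. Their RNA was read in 9 RNA-seq libraries, and binding near their start sites in 7 lists of ChIP-seq peaks. The pools of cells compared were control cells carrying the empty lentiviral vector pRRL, cells re-expressing HIF-1α (pRRL-HIF-1a) and cells overexpressing HIF-2α (pRRL-HIF-2a), with 3 RNA-seq libraries each. Peak lists were given for HIF-1β and HIF-2α in the control cells, for HIF-1α, HIF-1β and HIF-2α in the HIF-1α cells, and for HIF-1β and HIF-2α in the HIF-2α cells, with 1 library each. Each pool was transduced with a vector that also encodes EGFP, and all cells, controls included, lack VHL function and express their own HIF-2α. The parental line makes no full-length HIF-1α. In bulk RNA of such pools, more cells with a raised level and more RNA per cell cannot be told apart.

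Hypoxia-inducible factors are heterodimers of an oxygen-regulated α subunit, HIF-1α or HIF-2α (encoded by EPAS1), and the shared subunit HIF-1β (ARNT), and they bind the hypoxia response element whose core is ACGTG or GCGTG. Without VHL the α subunits are not degraded in normal oxygen. Among long-known HIF-1 targets are BNIP3 and BNIP3L, outer-membrane receptors that recruit the autophagy machinery to mitochondria, and several genes that change respiratory chain composition, including the alternative subunits NDUFA4L2 and COX4I2 and the matrix protease LONP1, which degrades the COX4I1 subunit. ISCU, the scaffold on which iron-sulphur clusters are built, is a known target of the hypoxia-induced microRNA miR-210.

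Library totals ran from 27852754 to 54287621 counts. All 10 markers of kidney tubule and of the 786-O line, PAX8 and VIM among them, were above 1 CPM (counts per 1000000 counts of the library, totals scaled by TMM) in every library, and their summed level was 7275 to 8074 CPM in control, 6069 to 7489 in HIF-1α and 5831 to 7671 in HIF-2α libraries. All 5 blood markers (CD3E and HBB at 0 throughout) and all 5 endothelial markers stayed below 1 CPM, as did 2 of 5 fibroblast markers, while LUM reached 10.4 CPM. HIF1A had 30.4, 36.7 and 152 CPM in control replicates 1, 2 and 3, 171, 1682 and 473 CPM in the HIF-1α libraries, and 15.3, 30.4 and 17.5 CPM in the HIF-2α libraries. EPAS1 had 456, 224 and 162 CPM in control, 575, 627 and 397 CPM in HIF-1α, and 946, 3244 and 880 CPM in HIF-2α libraries. Both introduced genes were thus highest in their own pools. Within a pool they were uneven, with replicate 2 the highest in each, and control replicate 3 had a HIF1A level close to that of HIF-1α replicate 1. The study reports that 786-O cells express truncated or fusion HIF1A transcripts, and counts per gene do not separate these from full-length ones.

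BNIP3 and BNIP3L had more RNA in every HIF-1α library than in any control library, as did 12.9% of genes tested. The HIF-1α and control libraries of FAM162A, FUNDC1, LONP1, ISCU and NDUFA4L2 overlapped, and COX4I2 was all but undetected. BNIP3 was 1.66 to 8.41 times and BNIP3L 1.54 to 4.06 times the level of the same-numbered control. HIF-2α cells went the other way for BNIP3, at 0.51 to 0.85 times control, and the same way for BNIP3L, at 1.28 to 1.87 times. With the pool as the only term, edgeR's quasi-likelihood test called none of the 7 members tested in any comparison at an adjusted p under 0.05. The background was equally empty: 0% of the 14225 genes tested were called in HIF-1α cells against control, 0% in HIF-2α cells against control and 0.0492% between the HIF-1α and HIF-2α cells. At an unadjusted p under 0.05 the members passing were BNIP3, BNIP3L and FAM162A in HIF-1α cells against control, none in HIF-2α cells and BNIP3 and FAM162A between the 2. The unadjusted share over all genes was 19.4% (2757 genes) in HIF-1α and 5.89% (838 genes) in HIF-2α cells against control, and 13.6% (1941 genes) between the HIF-1α and HIF-2α cells.

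Libraries with the same replicate number deviated together, and with that number as a block edgeR called BNIP3L in HIF-1α cells against control and BNIP3 between HIF-1α and HIF-2α cells. Against these single calls, 7.96% and 5.93% of all genes tested were called in the same fit, and in HIF-2α cells against control 0 members and 0.267% of all genes. DESeq2 without the block called BNIP3 and BNIP3L in HIF-1α cells, where it called 5.62% of genes, and BNIP3 and FAM162A between the HIF-1α and HIF-2α cells, where it called 4.25%. In HIF-2α cells DESeq2 called no member and 0.423% of genes. With DESeq2 and the block, 0 members and 3.46% of genes were called there, BNIP3, BNIP3L and ISCU and 20.8% of genes in HIF-1α cells, and BNIP3 and FAM162A and 12.5% of genes between the pools. The median log2 fold change of the 7 members in HIF-1α cells was 0.27 with the pool as the only term, beside 0.04 for all genes tested, and 0.76 with the block, again beside 0.04. In both fits that median was the value of NDUFA4L2, a gene with 6 to 82 counts per library, so it does not show a shift of the members as a set. In HIF-2α cells the median was -0.28 in either fit, beside -0.02 and -0.01 over all genes. Both comparisons with the vector share the 3 control libraries. By same-numbered libraries, 3 of the 7 members were higher in all 3 pairs of HIF-1α cells against control (29% of genes tested) and 2 were lower (25%). In HIF-2α cells against control 1 was higher (19.7%) and 4 were lower (19.4%), and in HIF-1α against HIF-2α cells 4 were higher (25.3%) and 1 was lower (24.1%). Between the latter pools the libraries of BNIP3 and FAM162A did not overlap, with HIF-1α higher (10.4%), and no member was lower without overlap (8.82%).

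**Figure D1:**
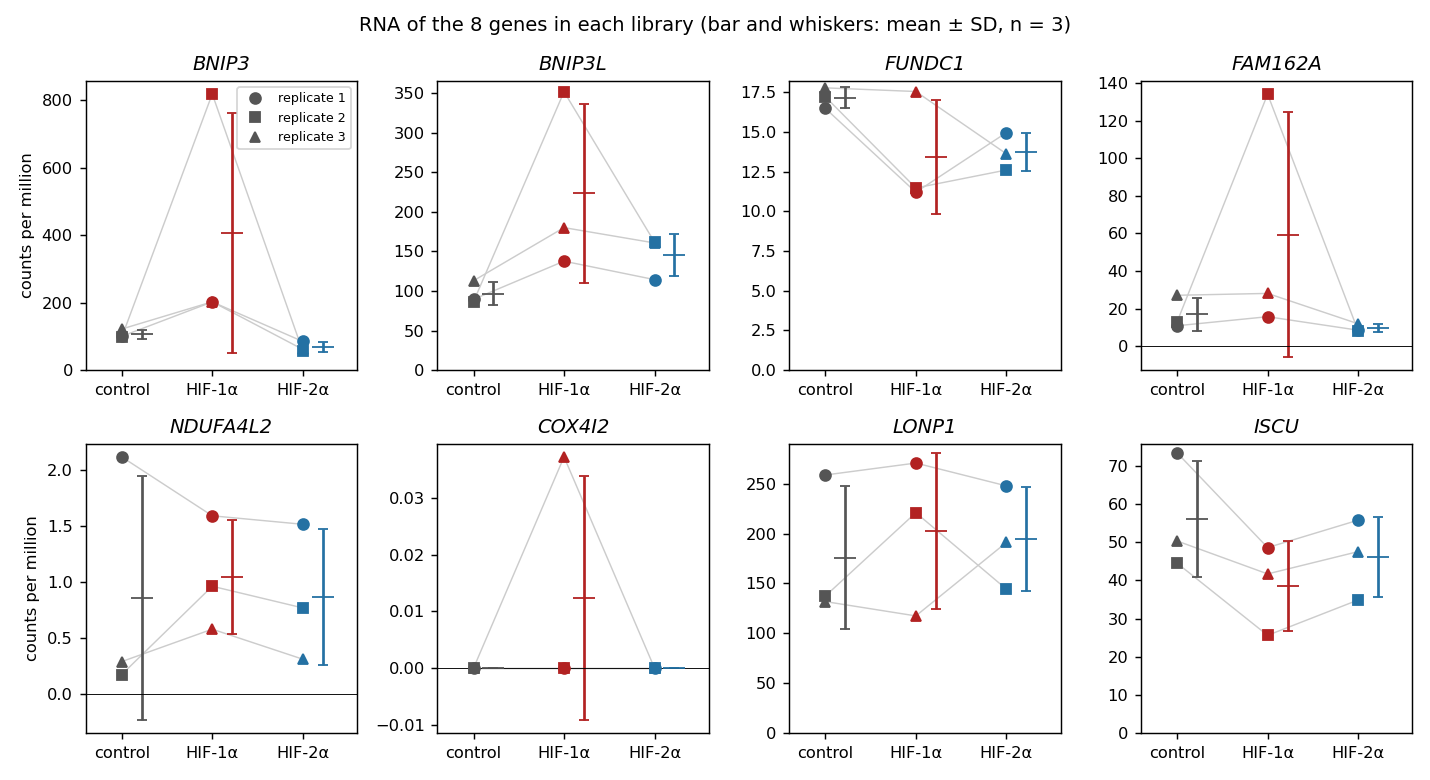
RNA level of each of the 8 genes in CPM (vertical axis, linear, a scale of its own in each panel) in 3 libraries per pool, with symbols for the replicate number, grey lines joining libraries of the same number, and mean ± SD (n = 3) beside the points. For BNIP3, BNIP3L and FAM162A the HIF-1α library of replicate 2 stands far above the other 8, at 819, 352 and 134 CPM.

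BNIP3, a BH3-containing mitophagy receptor, lies on the reverse strand at chr10:133781188-133795471 (GRCh37). Its RNA had 100.4, 97.3 and 122 CPM in control, 202, 819 and 203 CPM in HIF-1α and 85.2, 56.8 and 61.7 CPM in HIF-2α libraries. The 3 pools did not overlap at all: every HIF-1α library was above, and every HIF-2α library below, the 3 controls. Means were 107 ± 13.5, 408 ± 356 and 67.9 ± 15.2 CPM (SD, n = 3). Libraries separated downwards in this way for 5.19% of genes tested in HIF-2α cells. The log2 fold change in HIF-1α cells was 1.94 ± 0.51 (SE; adjusted p = 0.149, edgeR) and 1.72 ± 0.49 with the replicate block (adjusted p = 0.0575, edgeR). Replicate 2 set much of its size, for without that HIF-1α library the value was 0.90 (adjusted p = 0.293, edgeR). That library also had the most HIF1A RNA, 1682 CPM, and the part of this level in the value was not tested. In HIF-2α cells it was -0.65 ± 0.49 (adjusted p = 0.850, edgeR). Between HIF-1α and HIF-2α cells BNIP3 differed by 2.59 ± 0.52 (adjusted p = 0.0763, edgeR), and by 2.36 ± 0.50 with the block (adjusted p = 0.0273, edgeR). Without HIF-1α replicate 2 these values were 1.55 and 1.47. The call with the block was lost in 2 of 3 fits that left out a replicate number from every pool, without number 1 (adjusted p = 0.0545, edgeR) and number 3 (adjusted p = 0.0656, edgeR), and kept without number 2 (adjusted p = 0.0309, edgeR). Of 9 fits that left out 1 library, 7 kept it, and it was lost without HIF-2α replicate 2 (adjusted p = 0.0836, edgeR) or 3 (adjusted p = 0.122, edgeR).

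BNIP3 had a peak in all 7 lists, with the midpoint of the window 6 to 392 bp from its nearest start site. Within 150 bp of the span of these midpoints lay 9 hypoxia response element cores, counted on both strands. The stretch of the gene's own strand holding 6 of them, 45 to 200 bases upstream of the canonical start at chr10:133795472-133795627, is shown because it is where the cores cluster under the windows. Capitals mark the cores, and CACGC and CACGT are the complements of GCGTG and ACGTG.
BNIP3: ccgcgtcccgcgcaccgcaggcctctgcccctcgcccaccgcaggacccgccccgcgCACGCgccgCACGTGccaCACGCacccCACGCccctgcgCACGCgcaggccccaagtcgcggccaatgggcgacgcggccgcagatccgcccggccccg
The palindrome CACGTG counts once on each strand. No annotated exon covers this stretch. The HIF-1α window had 2 cores within 150 bp of its midpoint, both inside the gene and outside this stretch. In HIF-2α cells the HIF-1β window had 1 core that close, also outside the stretch, and the HIF-2α window had 0. The windows of the remaining lists had 3 or 6.

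BNIP3L (also NIX), the second receptor of this kind, known for clearing mitochondria from maturing red cells, lies on the forward strand at chr8:26240570-26363152. Its RNA had 89.5, 86.5 and 113 CPM in control, 138, 352 and 180.1 CPM in HIF-1α and 114, 162 and 161 CPM in HIF-2α libraries. All HIF-1α and all HIF-2α libraries were above all 3 controls, although HIF-2α replicate 1 exceeded control replicate 3 by little, and the HIF-1α and HIF-2α libraries overlapped. An upward separation was seen for 6% of genes tested in HIF-2α cells. BNIP3L rose in HIF-1α cells with the replicate block, by a log2 fold change of 1.12 ± 0.27 (adjusted p = 0.0439, edgeR), but the value of 1.21 ± 0.34 without it did not pass (adjusted p = 0.162, edgeR). The call was fragile. It was lost in 8 of 9 fits with the block that left out any 1 library and was kept only without control replicate 1, with adjusted p from 0.0334 to 0.213 (edgeR), and in all 3 fits that left out a replicate number (adjusted p from 0.0616 to 0.234, edgeR). Without HIF-1α replicate 2 the log2 fold change in that fit was 0.70. In HIF-2α cells the value was 0.60 ± 0.33 (adjusted p = 0.842, edgeR), and the HIF-1α and HIF-2α cells differed by 0.62 ± 0.33 (adjusted p = 0.446, edgeR), or by 0.096 without HIF-1α replicate 2. The gene shares 330 bp of exon with PNMA2 on the opposite strand.

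BNIP3L had a peak within 10 kb in 5 lists: HIF-1β in all 3 pools, HIF-1α in HIF-1α cells and HIF-2α in HIF-2α cells. Their midpoints were 22 to 66 bp from an annotated start. The HIF-2α lists of the control and HIF-1α cells had none there, where BNIP3 had one in each. Absence from a list means that no peak passed the calling threshold, not that binding was absent. The span of the midpoints held 5 cores.

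FUNDC1, another outer-membrane mitophagy receptor, known to be regulated mainly through its phosphorylation, lies on the reverse strand at chrX:44382885-44402105. It had 16.5, 17.2 and 17.8 CPM in control, 11.2, 11.5 and 17.5 CPM in HIF-1α and 14.95, 12.6 and 13.6 CPM in HIF-2α libraries. All HIF-2α libraries were below all controls, which was so for 5.19% of genes tested, whereas HIF-1α replicate 3 lay within the controls. The log2 fold changes were -0.36 ± 0.25 in HIF-1α (adjusted p = 0.435, edgeR) and -0.32 ± 0.25 in HIF-2α cells (adjusted p = 0.852, edgeR). No list had a peak within 10 kb, and the nearest window was 572 kb away or more. Its paralogue FUNDC2 fell in HIF-1α cells with the replicate block, by 0.69 ± 0.15 on the log2 scale (adjusted p = 0.0375, edgeR). The value without the block was as large, at -0.70, but did not pass (adjusted p = 0.163, edgeR). FUNDC2 was at 75.0 to 104 CPM in control, 49.3 to 61.3 CPM in HIF-1α and 65.3 to 92.9 CPM in HIF-2α libraries.

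FAM162A, a mitochondrial protein known as a mediator of cell death in hypoxia, lies on the forward strand at chr3:122103008-122131181. It had 10.9, 12.9 and 27.1 CPM in control, 15.7, 134 and 28.1 CPM in HIF-1α and 8.50, 8.13 and 11.9 CPM in HIF-2α libraries. Every HIF-1α library was above every HIF-2α library, which was so for 10.4% of genes tested. HIF-1α and control libraries overlapped, and control replicate 3 was nearly level with HIF-1α replicate 3. The log2 fold change in HIF-1α cells was 1.81 ± 0.70 (adjusted p = 0.217, edgeR), and 0.34 without HIF-1α replicate 2. Between HIF-1α and HIF-2α cells it was 2.64 ± 0.72 (adjusted p = 0.149, edgeR), and in HIF-2α cells -0.83 ± 0.69 (adjusted p = 0.860, edgeR). The former was 1.17 without HIF-1α replicate 2, and the latter -0.32 without control replicate 3. The gene shares 489 bp of exon with WDR5B on the opposite strand.

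FAM162A had a peak in 4 lists, those of HIF-1α and of HIF-1β in the 3 pools, 23 to 353 bp from a start site, and none in the 3 HIF-2α lists. The nearest start of another counted gene, CCDC58, was 742 bp from the middle of the windows. All 4 cores found there lay between positions -90 and -34 from the canonical start. They stand in the 179 bases upstream of the gene's first annotated base, chr3:122102829-122103007, shown with the cores in capitals because all 4 lie within 150 bp of the midpoint of each HIF-1β window.
FAM162A: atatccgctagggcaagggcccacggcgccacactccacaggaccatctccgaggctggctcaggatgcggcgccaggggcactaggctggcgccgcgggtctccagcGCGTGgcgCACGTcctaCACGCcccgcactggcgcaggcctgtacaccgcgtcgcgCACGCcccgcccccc
The HIF-1α window, with its midpoint at -374 bp, had no core within 150 bp of its midpoint.

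**Figure D2:**
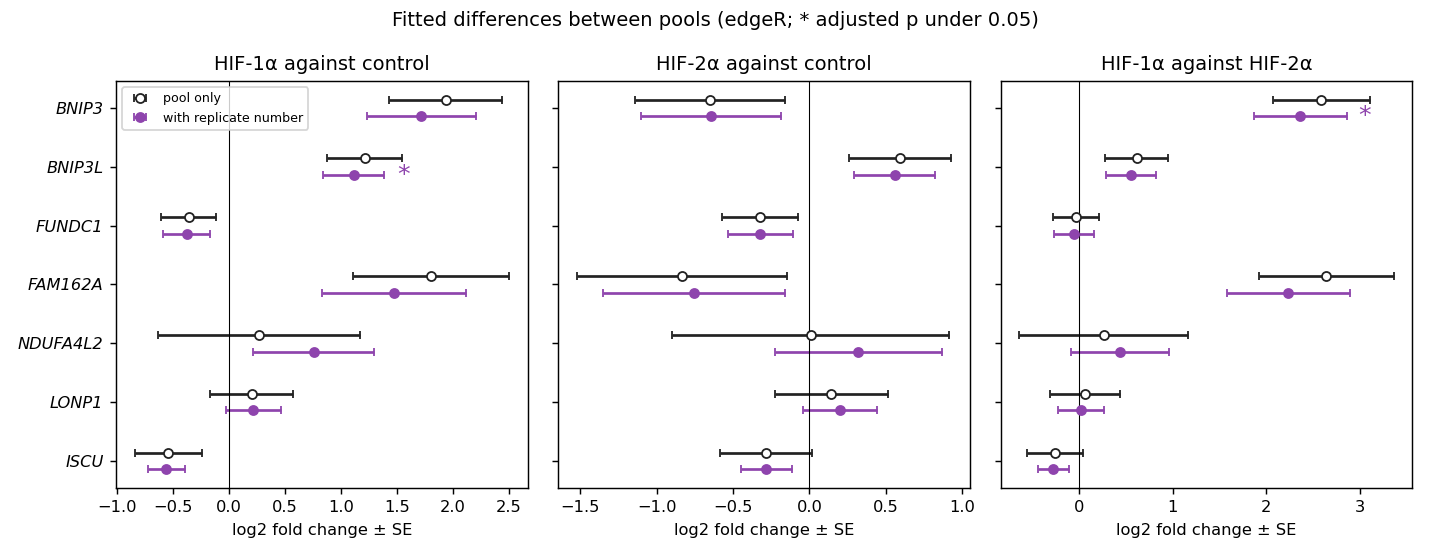
Log2 fold change ± SE (horizontal axis) of the 7 genes tested in the 3 comparisons, from edgeR with the pool as the only term (open) and with the replicate number as a block (filled), where an asterisk marks an adjusted p under 0.05. BNIP3 and FAM162A lie right of 0 in HIF-1α cells and left of 0 in HIF-2α cells, while BNIP3L lies right of 0 in both.

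NDUFA4L2 and COX4I2 are alternative forms of the cytochrome c oxidase (complex IV) subunits NDUFA4 and COX4I1. NDUFA4L2, on the reverse strand at chr12:57628686-57634498, is widely known as abundant in clear cell renal tumours, but it was at the edge of detection here. It had 82, 6 and 11 counts in control, 65, 38 and 31 counts in HIF-1α and 63, 22 and 12 counts in HIF-2α libraries, or 0.171 to 2.12 CPM over all 9. Replicate 1 was highest in each pool. Pools overlapped fully, with a log2 fold change of 0.27 ± 0.90 in HIF-1α (adjusted p = 0.891, edgeR) and 0.01 ± 0.91 in HIF-2α cells (adjusted p = 0.999, edgeR). With the block these were 0.76 ± 0.54 (adjusted p = 0.346, edgeR) and 0.32 ± 0.55 (adjusted p = 0.813, edgeR). It shares 33 bp of exon with SHMT2 on the opposite strand.

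NDUFA4, by contrast, had 153, 174 and 286 CPM in control, 113, 94.3 and 164 CPM in HIF-1α and 129, 97.5 and 134 CPM in HIF-2α libraries. It was lower than the same-numbered control in all 3 libraries of each pool. Its log2 fold change was -0.72 ± 0.30 in HIF-1α (adjusted p = 0.237, edgeR) and -0.76 ± 0.30 in HIF-2α cells (adjusted p = 0.837, edgeR). Without control replicate 3, the highest library, these were -0.40 and -0.44. Both passed with DESeq2 and the block (DESeq2 adjusted p = 0.00846 and 0.0318), while edgeR with the block gave an adjusted p of 0.0523 and 0.177. Counted per kb of the canonical transcript, NDUFA4L2 was 3.02%, 0.230% and 0.226% of NDUFA4 in control, 3.06%, 2.23% and 0.770% in HIF-1α and 2.56%, 1.74% and 0.517% in HIF-2α libraries. The ratio was at or below 3.06% everywhere, and control replicate 1 was as high as the highest HIF-1α library. The log2 ratio (0.5 added to each count) was 1.69 higher in HIF-1α and 1.29 higher in HIF-2α cells than in control (two-sided exact permutation p = 0.30 and 0.40, both 0.60 after adjustment over 3 comparisons). With 3 against 3 libraries that test cannot go below 0.10. Leaving out 1 library gave 1.06 to 2.93 and 0.66 to 2.53, with the highest value of each without control replicate 1 and the lowest without control replicate 3.

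**Figure D3:**
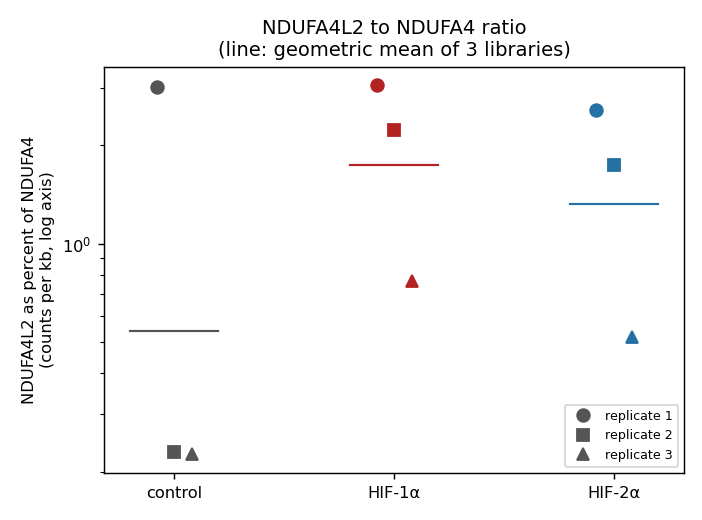
NDUFA4L2 as a percentage of NDUFA4 in counts per kb of the canonical transcript (vertical axis, logarithmic), by pool, with symbols for the replicate number and a line at the geometric mean of 3 libraries. Replicates 2 and 3 of the control, at 0.230% and 0.226%, lie below the other 7 libraries.

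NDUFA4L2 had a peak within 10 kb in 6 lists, all but that of HIF-2α in HIF-2α cells, yet not at its promoter. The midpoints lay 1783 to 2318 bp downstream of the nearest start, over the end of the gene, where the end of SHMT2 meets it. From the middle of the windows the nearest SHMT2 start, at 1400 bp, was closer than the NDUFA4L2 start, at 2050 bp. The span held 9 cores. A site of 30 bases in the NDUFA4L2 3′ UTR, chr12:57629001-57629030 on the gene's strand, is shown because it carries 3 of them, in capitals.
NDUFA4L2: gctACGTGttgaGCGTGgcctACGTGagcc

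COX4I2, known as the hypoxic form of subunit IV and expressed mainly in lung, lies on the forward strand at chr20:30225715-30232809. It had 2 counts in HIF-1α replicate 3 and 0 counts in the other 8 libraries, and was not tested. A count of 0 in the shallowest library allows up to 0.105 CPM, counting error only. No fold is given. COX4I1 was among the most abundant transcripts compared here, at 248 to 318 CPM in control, 174 to 193 CPM in HIF-1α and 152 to 224 CPM in HIF-2α libraries. All libraries of both pools were below the controls, which was so for 11.2% and 5.19% of genes tested, with log2 fold changes of -0.60 ± 0.22 (adjusted p = 0.197, edgeR) and -0.52 ± 0.21 (adjusted p = 0.837, edgeR). The value in HIF-1α cells passed with DESeq2 and the block (DESeq2 adjusted p = 0.0133), and had an adjusted p of 0.0626 in edgeR with the block. No peak lay within 10 kb of COX4I2, the nearest window being 22.7 kb to 34.9 kb away depending on the list. COX4I1 had peaks in the HIF-1α and HIF-1β lists of the HIF-1α cells, and NDUFA4 in the latter alone. The start of EMC8, another counted gene, was 129 bp from the middle of the COX4I1 windows, and that of COX4I1 23 bp.

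LONP1, the ATP-dependent protease of the matrix, lies on the reverse strand at chr19:5691845-5720583. It had 259, 137 and 132 CPM in control, 271, 221 and 117 CPM in HIF-1α and 248, 144 and 191 CPM in HIF-2α libraries. The pools overlapped, and replicate 1 was the highest in each. The log2 fold change was 0.21 ± 0.37 in HIF-1α (adjusted p = 0.790, edgeR) and 0.14 ± 0.37 in HIF-2α cells (adjusted p = 0.963, edgeR), and the block left them at 0.22 ± 0.24 and 0.20 ± 0.24. Its peroxisomal relative LONP2 rose in HIF-1α cells with the block, by 0.67 ± 0.17 on the log2 scale (adjusted p = 0.0485, edgeR), and did not pass without it (adjusted p = 0.176, edgeR).

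LONP1 had a peak in all 7 lists, like BNIP3. The midpoints were 2 to 176 bp from the nearest of its 13 annotated start sites, where BNIP3 has 3 such sites. Binding windows at the start thus accompanied overlapping RNA levels in this gene and separated ones in BNIP3. Its span of midpoints held 8 cores, of which 3 lie in the 53 bases at chr19:5720177-5720229, 20 to 72 bases upstream of the canonical start on the gene's strand and in no annotated exon, shown for comparison with BNIP3.
LONP1: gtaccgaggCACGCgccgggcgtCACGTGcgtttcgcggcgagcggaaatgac
The start of CATSPERD was 388 bp from the middle of the windows. LONP1 shares 42 bp of exon with RPL36, a ribosomal protein gene on the opposite strand.

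ISCU lies on the forward strand at chr12:108956358-108963144. It had 73.5, 44.5 and 50.3 CPM in control, 48.6, 25.6 and 41.7 CPM in HIF-1α and 55.8, 34.9 and 47.5 CPM in HIF-2α libraries. It was lower than the same-numbered control in 3 of 3 pairs in both pools, as were 25% of genes tested in HIF-1α and 19.4% in HIF-2α cells, while the libraries of the pools overlapped. HIF-1α cells were at 0.57 to 0.83 times control, with a log2 fold change of -0.54 ± 0.30 (adjusted p = 0.341, edgeR) that became -0.56 ± 0.17 with the block (adjusted p = 0.0647, edgeR). With DESeq2 and the block it was -0.57 ± 0.19 and passed (DESeq2 adjusted p = 0.0193), in the fit that called 20.8% of genes. In HIF-2α cells it was -0.28 ± 0.30 (adjusted p = 0.880, edgeR). The nearest peak was 124 kb away or more. Of the RefSeq promoters (GRCh38.p14, 250 bases before to 50 after the start), 48.4% held a core on either strand; that of ISCU held 2 and that of FUNDC1 held none.

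Binding windows near the 8 genes were concentrated on 5 of them. Within 10 kb of a start site, 5 of 8 members had a peak of HIF-1β in control cells (18.3% of the 22063 genes placed on the annotation), of HIF-1α (23.9%), of HIF-1β in HIF-1α cells (28%) and of HIF-1β in HIF-2α cells (11.3%). Of HIF-2α, 3 of 8 had a peak in control cells (3.74%), in HIF-1α cells (3.03%) and in HIF-2α cells (10.4%). Among the 13769 placed genes also tested for RNA, as 7 of the 8 members were, the shares were higher. In the same order they were 25.7%, 34.6%, 40.8% and 16.2%, and for HIF-2α 5.32%, 4.21% and 14.5%. With 1 library per list the counts of members have no replicate check. Every window is 2500 bp wide and carries no score, so neither strength nor depth can be compared. A gene without a peak in a list may still be bound below the threshold. The study reports such low HIF signal in control cells at many sites called only after HIF-2α overexpression. A core lay within 150 bp of the midpoint in all 5 members' windows for HIF-1β in control cells, beside 57.3% of all windows of that list, in 3 of 5 for HIF-1α (65.6%) and in 1 of 3 for HIF-2α in HIF-2α cells (45.8%). For HIF-1β it was 5 of 5 in HIF-1α cells (68.3%) and 4 of 5 in HIF-2α cells (66.1%). For HIF-2α it was 3 of 3 in control cells (59.8%) and 3 of 3 in HIF-1α cells (64.7%).

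**Figure D4:**
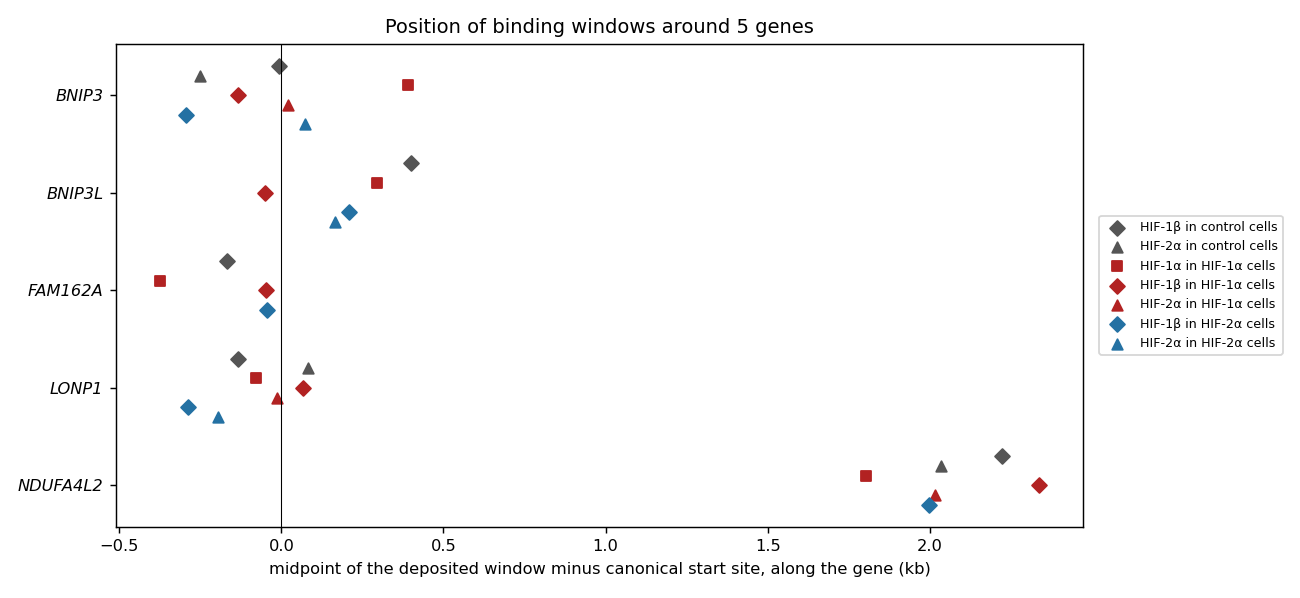
Midpoint of each deposited window relative to the canonical start site, in kb along the direction of the gene (horizontal axis, negative is upstream), for the 5 genes with a window within 10 kb, with symbols for the antiserum and colours for the pool. Windows of BNIP3, BNIP3L, FAM162A and LONP1 lie around the start, and those of NDUFA4L2 at 1802 to 2337 bp downstream.

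Per kb of canonical transcript, mean levels in control cells were 69.1 ± 8.74 CPM per kb for BNIP3, 57.1 ± 15.6 for ISCU, 56.9 ± 23.2 for LONP1, 27.9 ± 4.19 for BNIP3L, 16.3 ± 0.61 for FUNDC1, 5.56 ± 2.89 for FAM162A and 0.91 ± 1.16 for NDUFA4L2 (SD, n = 3). The first 3 overlapped in their libraries, and the others did not overlap with their neighbours in this order. In HIF-1α cells BNIP3 led with a mean of 264 ± 231 CPM per kb. The order among the first 5 depended on the length used, for per kb of all annotated exons LONP1 led in control cells with a mean of 35.0 CPM per kb, followed by BNIP3 with 26.3.

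Genes of the same pathways were read from 7 lists, in the fit with the replicate block. Over all genes tested, 5.41% rose and 2.55% fell in HIF-1α cells in that fit, and the median log2 fold change was 0.04. Among 23 tested mitophagy receptors, adaptors and regulators, 0 rose and FUNDC2 alone fell in HIF-1α cells, and the median log2 fold change was -0.02. A further list held 10 other genes linked to HIF and to mitochondria, not all of them coding for mitochondrial proteins. Of these, MIR210HG, the host transcript of miR-210, rose by 1.45 ± 0.30 (adjusted p = 0.0365, edgeR). MXI1, an antagonist of MYC, rose by 1.38 ± 0.30 (adjusted p = 0.0389, edgeR). None of the 10 fell, and the median was 0.72. At an unadjusted p under 0.05, 6 of these 10 were higher and 2 lower, beside 18.7% and 14.5% of all genes tested. MIR210HG was at 5.43 to 9.38 CPM in control, 11.2 to 41.1 CPM in HIF-1α and 6.33 to 12.2 CPM in HIF-2α libraries, and it was also higher in HIF-1α than in HIF-2α cells, by 1.32 ± 0.30 (adjusted p = 0.0352, edgeR). Of 12 tested nuclear complex IV subunits, 0 rose and 3 fell in HIF-1α cells, and the median was -0.60. COX5A, an early-assembly subunit, fell by 0.85 ± 0.17 (adjusted p = 0.0358, edgeR), from 96.4 to 109 CPM in control libraries to 50.0 to 72.2 CPM in HIF-1α libraries. COX6C fell by 0.84 ± 0.16 (adjusted p = 0.0357, edgeR) and COX6A1 by 0.80 ± 0.18 (adjusted p = 0.0410, edgeR). At an unadjusted p under 0.05, 11 of the 12 were lower in HIF-1α (14.5% of all genes tested) and 11 of the 12 in HIF-2α cells (6.84%), where none passed adjustment and the median was -0.50, beside -0.01 for all genes.

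Among 16 genes of iron-sulphur cluster assembly, the pathway ISCU serves, none passed in either direction in HIF-1α cells. The median was -0.48, with 7 lower and 1 higher at an unadjusted p under 0.05, beside 14.5% and 18.7% of all genes tested. Among 15 proteases and chaperones, HSPE1, the co-chaperonin of the matrix, fell by 0.90 ± 0.23 (adjusted p = 0.0455, edgeR), LONP2 rose, and the median was -0.34. No gene of these 5 lists passed in HIF-2α cells against control. None of the genes named from these lists passed without the block in HIF-1α cells, where their adjusted p ran from 0.149 to 0.176 (edgeR). With the block, edgeR called no gene at all in HIF-1α cells against control without HIF-1α replicate 2, HIF-2α replicate 1, control replicate 2 or control replicate 3, where 2837 to 4570 genes had an unadjusted p under 0.05.

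**Figure D5:**
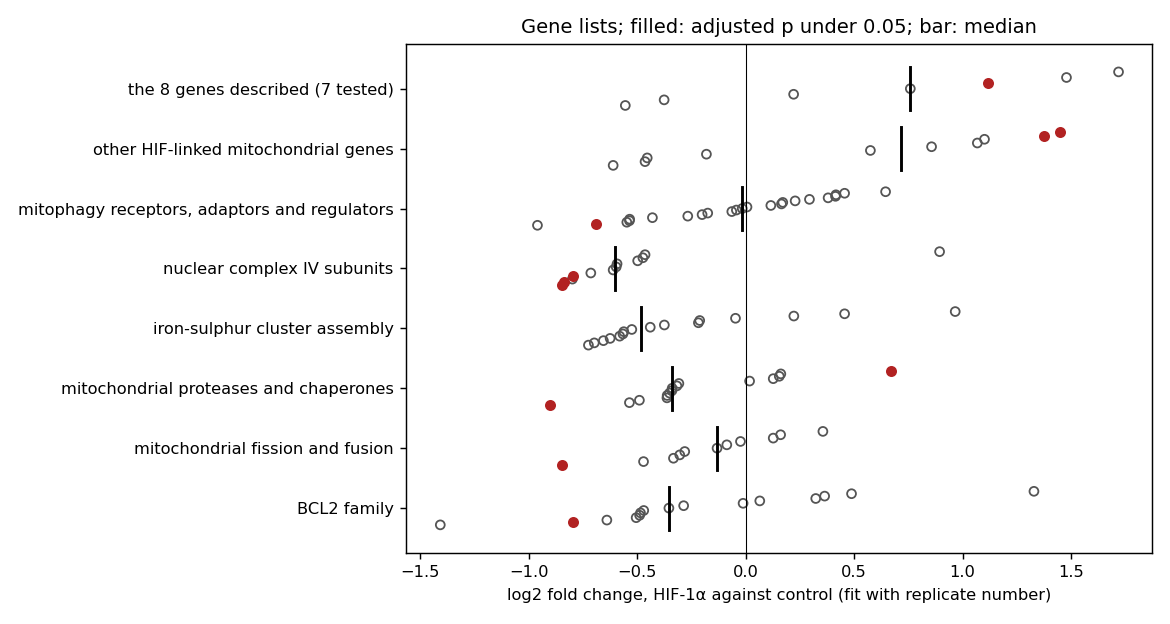
Log2 fold change in HIF-1α cells against control (horizontal axis, edgeR with the replicate block) of every tested gene in the 8 lists, with genes of adjusted p under 0.05 filled and a bar at each list's median. Nuclear complex IV subunits sit left of 0 with 1 exception, COX6B2, at 0.89.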

How the data were processed

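The members and gene lists were chosen with earlier results of these data known. The deposited table holds unnormalized read counts for each gene symbol (TopHat2 2.0.8b, Bowtie 1.0.0 and HTSeq 0.5.4p3 per the submitters' processing notes; the HTSeq strand setting is not given in the sources used here, the kit was directional) and, for ChIP-seq, windows of 2500 bp on GRCh37 without score (BWA 0.7.5a-r405, peaks of MACS and T-PIC).

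Counts were fitted in edgeR 4.0.16 (R 4.3.3): 9 libraries, TMM factors, edgeR's filter on low counts (14225 genes kept, 7 of 8 members), pool as the only term, quasi-likelihood test, Benjamini-Hochberg over all genes tested. CPM used the TMM-scaled totals. The study's methods name DESeq2, which was an alternative (1.42.0). No source says that triplicates were separate cultures, so p-values measure the spread between these libraries, which may be technical. Same-numbered libraries deviated together over genes (r 0.348 to 0.652 in 9 pairs, -0.478 to 0.028 in 18 others), so the replicate number was used as a block, and its value is given where it changes a call. No 2 replicates agreed within sampling noise (chi-square per degree of freedom 164 to 423).

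Start sites came from GENCODE v44 lifted to GRCh37, on which 94.1% of symbols were placed; distances run from window midpoints. Sequences were read from GRCh37 (pysam 0.24.0) and promoter cores from RefSeq. On simulated counts for HIF-1α against control, 65.3% of 4-fold and 6.06% of 2-fold changes were called with the pool only (14098 genes), and 97% and 41.4% with the block (14076 genes). Each fit had its own simulated counts, at a common dispersion of 0.141 for the pool only and 0.060 for the block. Shifts by replicate number were simulated for the block alone, so these rates do not compare the fits on the same data. Within a fit every gene had the same dispersion, so the rates may not hold for genes that vary more. On the real counts the fit with the pool only called 0 genes against control and so missed the introduced HIF1A and EPAS1. In their own pools these were 3.12 to 45.8 and 2.08 to 14.5 times the same-numbered control. Named are all members, NDUFA4, COX4I1, FUNDC2, LONP2, HIF1A, EPAS1, ARNT, up to 4 genes per list with the largest change past the threshold under the block, and the 3 genes most like BNIP3, FAM162A and NDUFA4L2; other genes named were chosen after their values were seen.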

Additional observations from a re-analysis of the deposited data

How the results depend on the processing

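Over all genes, the calls for HIF-1α against control, HIF-2α against control and HIF-1α against HIF-2α, which were 0, 0 and 7 with the pool as the only term, became 1132, 38 and 843 with the replicate block, 1110, 37 and 829 with RLE factors and the block, 766, 60 and 603 with DESeq2, and 2955, 482 and 1777 with DESeq2 and the block. For HIF-2α against control, no filter on low counts gave 1 and a fit of only the pools compared gave 2. For HIF-1α against HIF-2α, no filter gave 82, a minimum of 1 CPM in 3 libraries gave 31 and only the pools compared gave 0. Leaving out replicate numbers or a library of the pools compared, with and without the block, gave 0 to 2408, 0 to 78 and 0 to 592, and a library of the third pool up to 827, 94 (without HIF-1α replicate 3) and 890 (without control replicate 1). Members called in HIF-1α cells against control were 0, but 1 with the replicate block (also with RLE factors), 2 with DESeq2, 3 with DESeq2 and the block, and 0 to 1 on leaving out libraries. Between HIF-1α and HIF-2α cells they were 0, but 1 with the block (also with RLE factors), 1 without a filter, 2 with DESeq2 with or without the block, and 0 to 1 on leaving out libraries. In edgeR the block changed no other member's call, and in DESeq2 it added ISCU in HIF-1α cells against control. The cause of these differences was not tested.

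Leaving out libraries turned the sign of differences near 0: NDUFA4L2 from -0.22 to 2.16 in HIF-1α and -0.68 to 1.90 in HIF-2α cells against control and from -0.18 to 0.93 between them, its log2 ratio to NDUFA4 from -0.28 to 0.98 between HIF-1α and HIF-2α cells, LONP1 from -0.093 to 0.59, -0.089 to 0.53 and -0.30 to 0.38 in the same 3 comparisons, and FUNDC1 from -0.28 to 0.11 between HIF-1α and HIF-2α cells. BNIP3, BNIP3L, FAM162A and ISCU kept their sign in every fit run. The NDUFA4L2 ratio to NDUFA4 under the replicate block had the same means, with a sign-flip p that cannot go below 0.25 for 3 pairs. With the length of all exons, tried after seeing the data, it was at most 1.75%. The planned COX4I2 to COX4I1 ratio was not computed because COX4I2 had 2 counts in all. Within 50 kb every list gained COX4I2, and members with a HIF-2α peak in HIF-2α cells were 5 instead of 3, with NDUFA4L2 (22.4% of all genes instead of 10.4%). The share of all genes rose in every other list too. Within 50 kb it ran from 8% for HIF-2α to 43.9% for HIF-1β, both in HIF-1α cells, where 10 kb gave 3.03% and 28%. Cores in whole windows were found in 5 of 5 members' windows for HIF-1α and 3 of 3 for HIF-2α in HIF-2α cells, beside 99.7% and 94% of all windows, so these counts do not set the members apart. Single-library fits with the block were added after seeing the data. In counts simulated at the dispersion of the fit without the block, that fit rarely called a 2-fold change. COX4I2 had too few counts to be tested.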

Other observations

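Of 11 genes of mitochondrial fission and fusion, FIS1, an outer-membrane fission factor, fell in HIF-1α cells in the fit with the replicate block, by 0.85 ± 0.19 on the log2 scale (adjusted p = 0.0405, edgeR), none rose, and the list's median was -0.13. FIS1 had 69.6 to 77.8 CPM in control, 36.8 to 50.3 CPM in HIF-1α and 44.3 to 89.5 CPM in HIF-2α libraries. Of 15 tested genes of the BCL2 family, the pro-apoptotic pore former BAK1 fell in HIF-1α cells by 0.80 ± 0.17 (adjusted p = 0.0365, edgeR with the block), none rose, and the median was -0.35. BAK1 had 52.4 to 58.0 CPM in control, 26.8 to 35.4 CPM in HIF-1α and 36.4 to 41.7 CPM in HIF-2α libraries. BMF, a BH3-only member of that family, was the gene of either list that passed between HIF-1α and HIF-2α cells, higher in the former by 2.55 ± 0.42 (adjusted p = 0.0112, edgeR with the block, which called 5.93% of genes), or 2.28 without the block (adjusted p = 0.274, edgeR). It had 4.12 to 14.6 CPM in control, 7.72 to 35.1 CPM in HIF-1α and 1.44 to 10.5 CPM in HIF-2α libraries, with the ranges overlapping. No gene of either list passed in HIF-2α cells against control. Neither gene passed without the block (adjusted p = 0.171 for FIS1 and 0.149 for BAK1, edgeR).

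Likeness was measured as the root-mean-square difference in log2 CPM over the 9 libraries, each gene centred on its own mean. The genes most like BNIP3 were GPRC5A (0.39), DHRS13 (0.43) and KIAA1467 (0.44), where BNIP3 itself had an SD of 1.18. Those most like FAM162A were DHRS13 (0.33), BNIP3 (0.45) and EFNA3 (0.50). DHRS13 stood in both, at 7.68 to 14.7 CPM in control, 10.2 to 50.5 CPM in HIF-1α and 5.95 to 7.04 CPM in HIF-2α libraries. Those most like NDUFA4L2 were TMEM255B (0.28), CCPG1 (0.37) and NALCN (0.40), none of which is among the 3 named for BNIP3 or for FAM162A. NDUFA4L2 had only 6 to 82 counts per library. In HIF-1α replicate 2 BNIP3 and FAM162A had 819 and 134 CPM, beside at most 203 and 28.1 CPM in any other library. How far their likeness to other genes rests on that library was not tested.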
